A study of Arabidopsis thaliana with 9 samples.

Results

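The comparison described here splits 4 mRNA libraries from Arabidopsis thaliana siliques, the fruits that hold the developing seeds, by how much seed maturation transcript they contained. Homozygous replicate 2 and wild-type replicate 1 held little of it, and are called the seed-transcript-poor libraries. Homozygous replicate 1 and wild-type replicate 2 held more, and are called the seed-transcript-rich libraries. Each side has 1 homozygous and 1 wild-type library, so a difference can be taken within each genotype. The 4 are among 6 mRNA libraries and 9 samples in all.

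The study looked at AGO3, an ARGONAUTE protein, which binds small RNAs, in reproductive tissue. Homozygous plants carried the ago3-3 allele on both chromosomes, heterozygous plants on 1, and wild-type plants on neither. All were of the Columbia-0 ecotype, all siliques were taken 1 to 5 days after pollination, and no other treatment is labelled. Zygosity comes from the sample titles and the design text, since the genotype field reads ago3-3 for homozygous and heterozygous plants alike. The labels do not say how many siliques or plants went into a library, nor from which day within the 5 each silique came, so siliques of different days may be pooled in different proportions. The 2 heterozygous libraries entered no difference between the sides and are set beside them.

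The sides were chosen from measured seed transcripts. The differences between them are therefore descriptions, without a test, and the storage protein and seed oil genes are the values that chose them. A gene was called lower or higher when it differed at least 2-fold in the same direction in both pairs, that is, homozygous replicate 2 minus homozygous replicate 1 and wild-type replicate 1 minus wild-type replicate 2, both on the log2 counts-per-million (CPM) scale. Libraries held 30338426 to 36258968 counts, at which 3 counts correspond to 0.0812 to 0.107 CPM. AGO3 itself stood at 3.28 CPM in homozygous replicate 2 and 30.4 CPM in wild-type replicate 1, against 2.11 CPM in homozygous replicate 1 and 17.59 CPM in wild-type replicate 2. The heterozygous libraries held 12.6 and 12.1 CPM, so AGO3 was lowest in both homozygous libraries on either side of the split.

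After fertilisation an Arabidopsis seed first patterns its embryo and grows its endosperm and seed coat. It then enters maturation, when the embryo stores protein and oil. The maturation programme is switched on by the transcription factors ABI3, FUS3 and LEC2, which bind through a B3 domain, and by LEC1, a subunit of the NF-Y complex. Their targets include the 2S albumins and 12S cruciferins, which are the storage proteins, and the oleosins, which coat oil bodies. The seed coat meanwhile lays down mucilage and oxidised flavonoids, and late embryogenesis abundant (LEA) proteins follow as the seed dries. In whole siliques, fewer cells of a type and less RNA per cell cannot be told apart.

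Of 19851 genes with a mean of at least 1 CPM over the 4 libraries, 195 were lower and 44 were higher in both pairs. These are 0.982% and 0.222% of the genes tested, and 1.2% together. In the homozygous pair alone 360 genes were at least 2-fold lower, or 1.81%, and 271 were higher, or 1.37%. In the wild-type pair alone 517 were lower, or 2.6%, and 293 were higher, or 1.48%. The 195 shared lower genes made up 54.2% of those lower in the homozygous pair and 37.7% of those lower in the wild-type pair. The 44 shared higher genes made up 16.2% and 15.0% of those higher in the 2 pairs. The pairs thus overlapped more among lower than among higher genes. Choosing both poor libraries for low maturation transcripts favours shared lower genes, so this contrast is a description only. A further 13 genes, or 0.0655%, were at least 2-fold apart in both pairs in opposite directions.

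**Figure D1:**
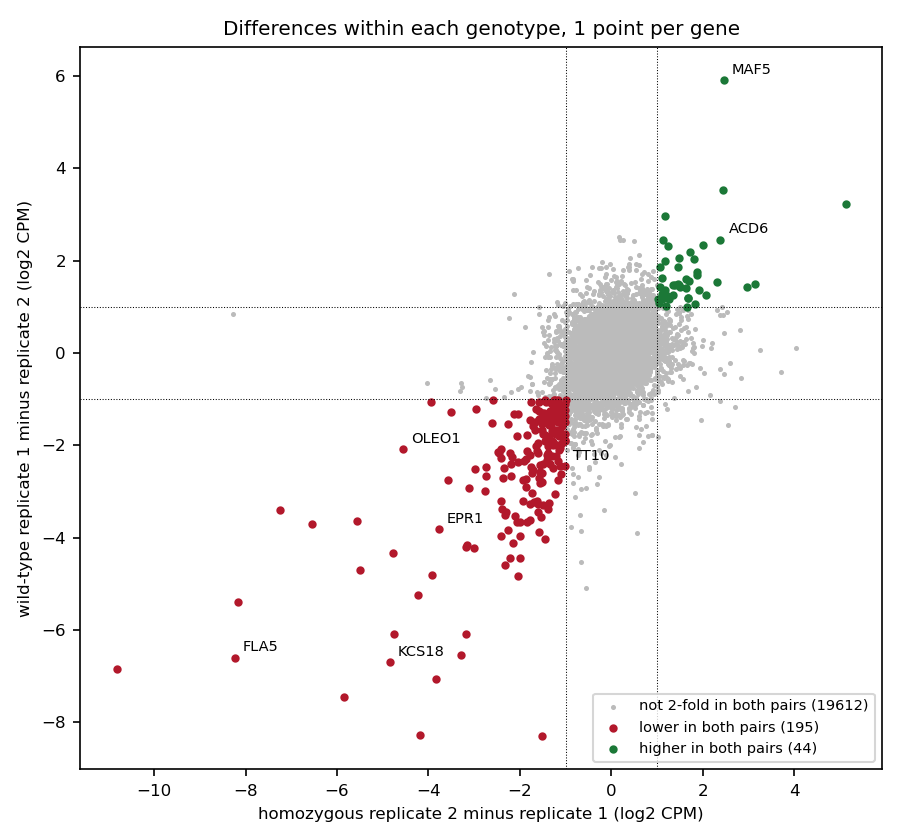
Each point is 1 of the 19851 genes, with the difference within the wild-type pair (replicate 1 minus replicate 2, log2 CPM) against that within the homozygous pair (replicate 2 minus replicate 1, log2 CPM), and dotted lines mark 2-fold. The 195 genes lower in both pairs reach far to the lower left, while most of the 44 higher in both pairs stay near the 2-fold lines.

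The 2 pairs have no library in common, but each difference was taken as poor minus rich. Choosing the sides by maturation transcripts favours a positive correlation between the pairs. Over the 19851 genes their differences had a Pearson correlation of 0.48 and a Spearman correlation of 0.30, given as a description across genes, which are not independent replicates. The median difference over all genes was -0.00 in the homozygous pair and 0.01 in the wild-type pair. Of the lower genes, 53 were at least 4-fold and 21 at least 8-fold lower in both pairs, against 5 and 1 of the higher genes. The smallest size among the lower genes was 1.001 on the log2 scale, and the largest just outside was 0.998. Of the 195 lower genes 188 code for protein, as did 19362 of the 19851 tested. At least 5 CPM on average was reached by 113 of the 195 lower genes and by only 12 of the 44 higher genes. Of all 19851 genes tested, 15917 reached that level. Both called sets therefore held a smaller share of such genes than the whole, and the higher side rests on the fewest and most weakly expressed genes.

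Storage protein transcripts were close to absent in the seed-transcript-poor libraries. The 8 genes of the list summed to 0.674 CPM in homozygous replicate 2 and 0.460 CPM in wild-type replicate 1, against 35.0 CPM in homozygous replicate 1 and 3.21 CPM in wild-type replicate 2. The heterozygous libraries held 11.5 and 99.5 CPM. The list therefore runs as a gradient over the 6 libraries, with wild-type replicate 2 the nearest to the poor side and heterozygous replicate 2 at the far end.

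Only 3 storage genes passed the expression filter, and all 3 were called lower, a count that the choice of sides fixes. CRA1, a 12S cruciferin, had 10 counts in homozygous replicate 2 and 2 in wild-type replicate 1, against 582 in homozygous replicate 1 and 38 in wild-type replicate 2, with 219 and 1081 in the heterozygous libraries. Scaled to depth it was 56.5-fold lower in the homozygous pair (95% exact binomial interval 30.5 to 118) and 25.0-fold lower in the wild-type pair (6.47 to 214). These intervals cover counting error only, since sequenced reads are not independent molecules, and the wide one reflects the 2 counts of wild-type replicate 1.

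SESA3, a 2S albumin, had 0 and 1 counts in the poor libraries, against 302 in homozygous replicate 1 and 24 in wild-type replicate 2, and was at least 97.7-fold lower in the homozygous pair when 3 counts are taken as the floor. SESA1, another albumin, had 11 counts in homozygous replicate 2 and 14 in wild-type replicate 1, against 101 in homozygous replicate 1 and 27 in wild-type replicate 2. The sides did not overlap for either gene, as for 20.9% of all genes tested with both poor libraries below both rich ones and 21.4% with both above. SESA1, SESA2, SESA3 and SESA4 are close copies, so reads may have been divided among them.

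The other 5 storage genes did not pass the filter. SESA2 had 1 and 0 counts in the poor libraries, against 106 in homozygous replicate 1 and 1 in wild-type replicate 2, and 19 and 710 in the heterozygous libraries. SESA4 had 0 and 0, against 56 and 0, with 8 and 182 in the heterozygous libraries, and SESA5 had 0 and 0, against 13 and 0, with 1 and 42. The cruciferin CRU2 had 0 and 0, against 16 and 0, with 3 and 27 in the heterozygous libraries. Wild-type replicate 2 thus looked like the poor libraries for these 4 genes. CRU3 was undetected in all 4 libraries and had 1 and 148 counts in the heterozygous libraries.

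Seed oil genes separated the sides with higher counts behind them. The oil list summed to 52.9 CPM in homozygous replicate 2 and 44.6 CPM in wild-type replicate 1, against 213 CPM in homozygous replicate 1 and 131 CPM in wild-type replicate 2, with 144 and 324 CPM in the heterozygous libraries. Of its 7 tested members 6 were called lower, where 0.982% of all genes were, a count that the choice of sides favours. The median difference was -2.76 in the homozygous pair and -2.36 in the wild-type pair. The 6 libraries fell in the same order as for the storage genes, and here wild-type replicate 2 stood clearly apart from the poor libraries.

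The oleosin OLEO1 was at 2.02 CPM in homozygous replicate 2 and 3.87 CPM in wild-type replicate 1, against 49.2 CPM in homozygous replicate 1 and 16.6 CPM in wild-type replicate 2. It was 24.3-fold lower in the homozygous pair (95% interval 19.0 to 31.6) and 4.29-fold lower in the wild-type pair (3.55 to 5.21). The other oleosins with a symbol, OLEO2, OLEO3 and OLEO4, were lower too, by -2.99 and -2.52, by -2.04 and -2.36, and by -1.57 and -1.25 on the log2 scale in the homozygous and wild-type pairs. KCS18, also known as FAE1, the elongase that makes the very long chain fatty acids of seed oil, was at 0.674 and 0.0271 CPM in the poor libraries, against 21.0 CPM in homozygous replicate 1 and 8.88 CPM in wild-type replicate 2. AT3G01570, a further member of the list, was lower by -2.76 and -2.99. TAG1, which catalyses the last step of triacylglycerol synthesis and works outside seeds as well, was the member not called, at 29.4 and 28.0 CPM in the poor libraries, against 37.8 and 41.5 CPM in the rich ones.

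Several maturation regulators, themselves maturation transcripts, were lower in the poor libraries. The 12 listed genes summed to 112 CPM in homozygous replicate 2 and 101 CPM in wild-type replicate 1, against 222 CPM in homozygous replicate 1 and 200 CPM in wild-type replicate 2, with 187 and 230 CPM in the heterozygous libraries. Of 10 tested, 5 were called lower and none higher, where 0.982% and 0.222% of all genes were. Choosing the sides by maturation transcripts favours such a count. ABI3 was at 14.4 and 13.2 CPM in the poor libraries, against 38.4 CPM in homozygous replicate 1 and 33.8 CPM in wild-type replicate 2, which is 2.67-fold lower (2.40 to 2.98) and 2.57-fold lower (2.30 to 2.87). The sizes in the 2 pairs lie within each other's counting intervals.

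NF-YB6, the closest relative of LEC1, was at 4.81 and 2.57 CPM in the poor libraries, against 22.2 and 13.8 CPM in the rich ones, and FUS3 at 7.35 and 4.93 CPM, against 15.9 and 10.9 CPM. PEI1, an embryo zinc finger protein, was lower by -1.78 in the homozygous pair and -3.26 in the wild-type pair, and DPBF2, the maturation factor also known as bZIP67, by -1.11 and -2.05. The early regulators LEC1 (-0.55 and -0.16) and LEC2 (-0.48 and -0.39) were not called. WRI1, an activator of fatty acid synthesis, came close at -0.85 and -0.90, and ABI4, an AP2-type factor of the abscisic acid response, was at -0.48 and -0.66. ABI5, which acts later in seeds, was slightly higher at 0.41 and 0.25. The 5 uncalled regulators are named after their values were seen. LEC1 and LEC2 differed less between the sides than the 5 called regulators.

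**Figure D2:**
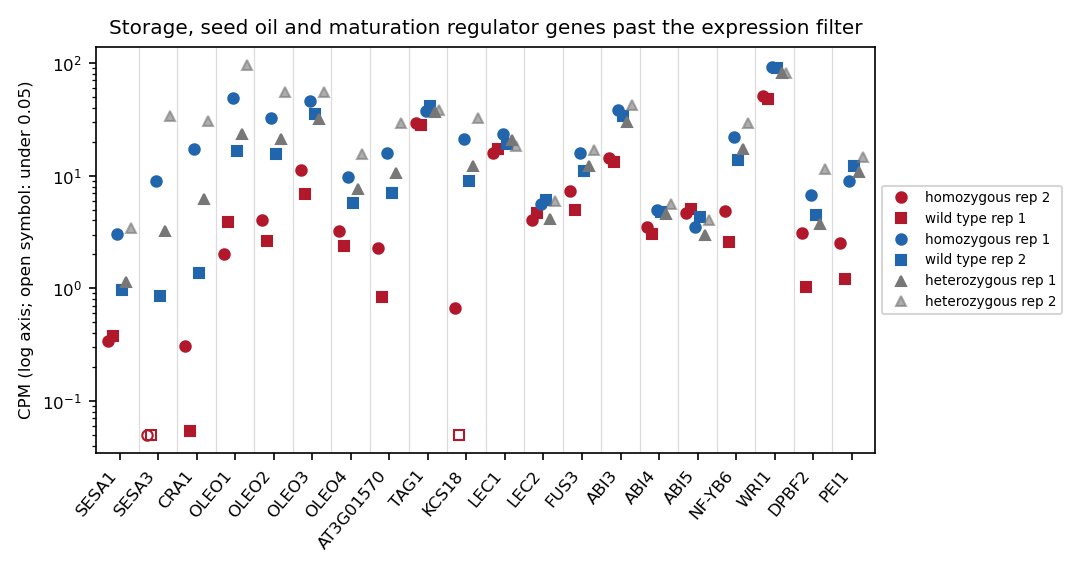
CPM on a log axis in each of the 6 mRNA libraries for the 20 storage, seed oil and maturation regulator genes past the expression filter, with red for the poor, blue for the rich and grey for the heterozygous libraries. The red symbols lie lowest for the storage proteins, oleosins and KCS18 and close up with the blue ones for LEC1, LEC2, ABI4 and ABI5.

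LEA and desiccation genes, which follow storage reserve genes in a seed, held no called gene. Of 11 members 3 were tested, with median differences of -0.33 and -0.01. The classic marker EM1 was undetected in all 6 mRNA libraries. Embryo patterning genes were not called either, at 0 of 14 tested, with medians of -0.30 and -0.04. With 1.2% of all genes called, lists of this size with no call are at the background.

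The seed coat and endosperm lists each held 1 called gene. TT10, the laccase that oxidises seed coat flavonoids, was at 184 CPM in homozygous replicate 2 and 64.1 CPM in wild-type replicate 1, against 373 CPM in homozygous replicate 1 and 350 CPM in wild-type replicate 2. The other 17 flavonoid genes were not called, and the list's medians were 0.15 and 0.16. TT10 went against most of its list: of the 18 genes, 13 were higher and 2 lower at any size in both pairs. Over all genes, 30.8% were higher and 29.7% lower in both. PMEI6 (AT2G47670), a pectin methylesterase inhibitor of mucilage, was lower by -1.36 and -3.25, as 1 of 20 mucilage genes. A further 13 of the 20 were lower in both pairs by a smaller size in 1 or both, 3 were higher in both, and the medians were -0.26 and -0.42. These counts stand against the same 29.7% lower and 30.8% higher of all genes. ALE1, a subtilisin protease of the endosperm that the embryo needs for its cuticle, was at 17.3 and 12.3 CPM in the poor libraries, against 40.3 and 41.6 CPM in the rich ones, and was the 1 gene called of 13 tested endosperm genes. Its list did not share its direction: at any size 4 were lower and 6 higher in both pairs, and 3 had opposite signs. The endosperm medians were -0.10 and 0.53. With 0.982% of all genes lower, a single call in a list of 13 to 20 genes is little above the background.

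In other lists too, single genes that are known from seeds were lower. NCED9, an abscisic acid biosynthesis enzyme active in seeds, was at 5.09 CPM in homozygous replicate 2 and 1.54 CPM in wild-type replicate 1, against 24.6 CPM in homozygous replicate 1 and 22.9 CPM in wild-type replicate 2, and was the only one of 18 abscisic acid and dehydration genes called. SAG29, also known as SWEET15, a sugar exporter that feeds the embryo, was at 22.5 and 11.0 CPM, against 59.2 and 40.5 CPM, as 1 of 20 transport genes. Neither list as a whole lay far from 0, with medians of 0.26 and -0.04 and of -0.02 and -0.10. With 0.982% of all genes called lower, a single call in lists of 18 and 20 genes is little above the background.

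Among all genes with a symbol and a mean of at least 5 CPM, FLA5, a fasciclin-like arabinogalactan protein, was the most strongly lower gene by the smaller of its 2 differences. It was at 0.184 CPM in homozygous replicate 2 and 0.595 CPM in wild-type replicate 1, against 73.5 CPM in homozygous replicate 1 and 63.5 CPM in wild-type replicate 2, with 66.7 and 79.4 CPM in the heterozygous libraries. That is 400-fold lower in the homozygous pair (183 to 1090) and 107-fold lower in the wild-type pair (70.2 to 171). The 4 libraries outside the poor side were nearly level for FLA5, unlike the gradient of the storage genes. GLIP6, a GDSL-type lipase, was at 2.94 and 0.893 CPM in the poor libraries, against 26.7 and 17.0 CPM in the rich ones, and EPR1 (AT2G27380), an extensin-like protein, at 3.31 and 2.06 CPM, against 46.1 and 29.7 CPM.

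The rest of the strongest lower genes included enzymes of lipid and carbon metabolism. CSY1, the citrate synthase of peroxisomes, was at 9.59 and 2.03 CPM in the poor libraries, against 43.0 and 36.3 CPM in the rich ones. ACP5, an acyl carrier protein, was at 2.36 and 1.79 CPM, against 12.7 and 7.71 CPM, and MES4, a methylesterase, at 4.90 and 4.90 CPM, against 43.0 and 37.6 CPM. In each of these the highest poor library stayed below the lowest rich one, as at 20.9% of all genes tested. Choosing the strongest lower genes favours that order. Several further genes, chosen after their values were seen, have textbook roles in seeds. They were ALPHA-VPE, a vacuolar protease, at 5.03 and 2.98 CPM, against 18.23 and 13.1 CPM, EEL, a bZIP factor of maturation, at 5.73 and 3.27 CPM, against 19.7 and 15.3 CPM, and GA20OX3, a gibberellin biosynthesis enzyme, at 44.7 and 22.7 CPM, against 116 and 102 CPM.

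Lower genes had another lower gene nearby more often than tested genes as a whole did, though most had none. Of the 188 protein-coding ones, 33 (17.55%) had another lower gene within 5 gene positions, against 1278 of 19362 tested protein-coding genes (6.60%) that had one. The neighbours AT1G62060, AT1G62070 and AT1G62080 were an example chosen after their values were seen. AT1G62060 was at 19.6 CPM in homozygous replicate 2 and 0.839 CPM in wild-type replicate 1, against 358 CPM in homozygous replicate 1 and 279 CPM in wild-type replicate 2. SESA1 with SESA3, and MES4 with MES6, were other such groups. Neighbours that are near-identical copies can share reads, so they are not independent genes.

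The wild-type pair differed more than the homozygous pair among the lower genes. The difference was larger in the wild-type pair in 138 of the 195, and in 24 of the 44 higher genes. Over all genes, 2.6% were at least 2-fold lower in the wild-type pair and 1.81% in the homozygous pair. Wild-type replicate 1 was below homozygous replicate 2 in 159 of the 195 (81.5%). That order crosses the genotypes and also held at 36 of the 44 higher genes (81.8%), so it was not particular to the lower genes. For 34 genes wild-type replicate 1 was at least 4-fold lower within its pair while homozygous replicate 2 was not 2-fold lower within its own, against 13 genes the other way round. JMT, which methylates jasmonic acid, was 1 of the 34, at 131 CPM in homozygous replicate 2 and 11.5 CPM in wild-type replicate 1, against 207 CPM in homozygous replicate 1 and 265 CPM in wild-type replicate 2. PER36 (AT3G50990), a mucilage peroxidase, was another, at 102 and 3.57 CPM, against 149 and 124 CPM. On a log scale homozygous replicate 2 lay nearer, for both genes, to the rich libraries than to wild-type replicate 1, and both genes were chosen after their values were seen.

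The list with the most higher genes was salicylic acid defence, the response by which plants resist biotrophic pathogens. The 22 listed genes summed to 230 CPM in homozygous replicate 2 and 209 CPM in wild-type replicate 1, against 155 CPM in homozygous replicate 1 and 126 CPM in wild-type replicate 2, with 129 and 125 CPM in the heterozygous libraries. Of 16 tested, 4 were called higher, where 0.222% of all genes were, and 13 were higher at any size in both pairs with none lower in both, where 30.8% of all genes were higher in both. The medians were 0.66 and 1.06. Both poor libraries stood above the other 4 in the list's sum.

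BGL2, also known as PR2, a glucanase and a common marker of this response, was at 15.5 CPM in homozygous replicate 2 and 1.16 CPM in wild-type replicate 1, against 0.387 CPM in homozygous replicate 1 and 0.0714 CPM in wild-type replicate 2. It was 40.1-fold higher in the homozygous pair (23.2 to 75.8) and 16.3-fold higher in the wild-type pair (4.25 to 139), the second resting on 2 counts in wild-type replicate 2. Its level was therefore set mainly by homozygous replicate 2, and it passed the expression filter only through that library. The count of 4 defence genes called higher includes it. PR1, the best known marker, was at 0.919 CPM there, at 0 in wild-type replicate 1, and at 0 in both rich libraries, and did not pass the filter.

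ACD6, an ankyrin repeat membrane protein that promotes salicylic acid signalling, was at 11.6 and 6.55 CPM in the poor libraries, against 2.17 CPM in homozygous replicate 1 and 1.14 CPM in wild-type replicate 2. It was 5.35-fold higher (4.15 to 6.97) and 5.74-fold higher (3.96 to 8.57), with 0.683 and 0.426 CPM in the heterozygous libraries. PR5, a thaumatin-like protein, was at 9.74 and 6.06 CPM, against 3.69 and 2.14 CPM, and WAK1, a wall-associated kinase, at 33.4 and 27.8 CPM, against 14.0 and 12.3 CPM. For ACD6, PR5 and WAK1 the poor libraries lay above all of the other 4, whereas the defence genes ALD1 and PCC1, named after their values were seen, did not separate the homozygous pair, at -0.05 and -0.10.

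**Figure D3:**
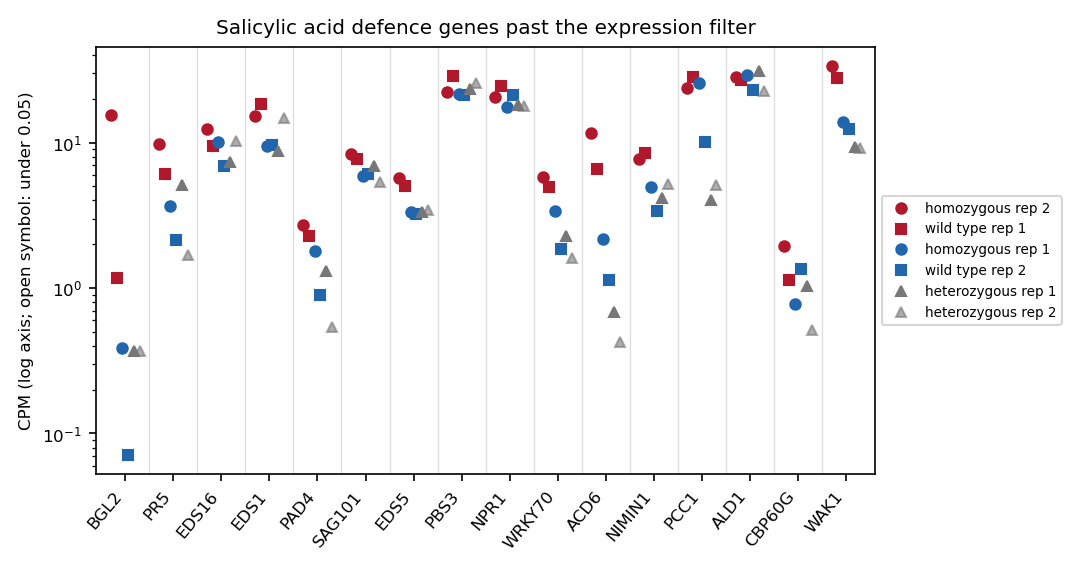
CPM on a log axis in each of the 6 mRNA libraries for the 16 salicylic acid defence genes past the expression filter, coloured red for the poor, blue for the rich and grey for the heterozygous libraries. The red symbols are the 2 highest for BGL2, PR5, ACD6 and WAK1, and the colours mix for ALD1, PBS3 and CBP60G.

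Of the other higher genes, 4 with a symbol and a mean of at least 5 CPM have the following values. HR4, a homologue of the RPW8 mildew resistance protein, was at 10.0 and 8.42 CPM in the poor libraries, against 3.18 and 2.71 CPM in the rich ones. RK1, a receptor kinase, was at 8.95 and 8.88 CPM, against 3.21 and 3.10 CPM, and RLP42, a receptor-like protein, at 7.42 and 7.25 CPM, against 3.42 and 3.21 CPM. WRKY54, a transcription factor of the salicylic acid response, was at 7.72 and 8.61 CPM, against 3.51 and 1.53 CPM. The libraries within each side were close to each other for HR4, RK1 and RLP42, while WRKY54 differed between the rich libraries. Receptor-like proteins went both ways, since 2 of 27 tested were called higher (RLP42 and RLP38) and 2 lower (RLP55 and RLP43), the last 3 named after their values were seen. Over all genes 0.222% were called higher and 0.982% lower. LURP1, chosen after its values were seen and known from resistance to a downy mildew, was at 7.57 and 6.01 CPM, against 1.34 and 0.464 CPM. Whether a pathogen or another stress was present is not in the labels, and its part in these differences was not tested.

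Jasmonate genes behaved differently in the 2 pairs. JAZ5, a repressor of jasmonate signalling, was the 1 gene called higher of 14 tested, where 0.222% of all genes were. It was at 8.27 CPM in homozygous replicate 2 and 2.52 CPM in wild-type replicate 1, against 2.53 CPM in homozygous replicate 1 and 1.07 CPM in wild-type replicate 2. The list had a median of 0.77 in the homozygous pair and 0.01 in the wild-type pair. VSP2, a vegetative storage protein induced by jasmonate and chosen after its values were seen, was at 2162 and 360 CPM in the poor libraries, against 868 CPM in homozygous replicate 1 and 476 CPM in wild-type replicate 2. Homozygous replicate 2 was thus the highest of these 4 libraries, while wild-type replicate 1 was below wild-type replicate 2.

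A pair of flowering regulators, also picked after their values were seen, differed in opposite directions. FLC, a MADS-box repressor of flowering, was at 0.797 and 0.893 CPM in the poor libraries, against 4.64 and 4.21 CPM in the rich ones, with 4.35 and 3.24 CPM in the heterozygous libraries. MAF5, of the same family, was at 11.4 and 3.55 CPM in the poor libraries, against 2.02 and 0 CPM in the rich ones. Its heterozygous values of 9.59 and 0.994 CPM spanned both sides, so MAF5 did not follow the split beyond the 4 libraries.

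Of 28 gene lists with 447 members, 372 of them tested, 12 lists held a called gene and 16 held none. The fruit wall patterning and dehiscence list, which would bear on the age of the fruit itself, had 0 of 14 called and medians of -0.12 and -0.08. SHP1, which specifies the valve margin, was at 79.3 and 84.2 CPM in the poor libraries, against 70.9 and 78.5 CPM in the rich ones, a difference that is small beside those in the seed genes. Photosynthesis (0 of 22), secondary wall and lignin (0 of 21), cell division (0 of 23), heat stress (0 of 8), hypoxia (0 of 8), the circadian clock (0 of 18) and sugar starvation and senescence (0 of 14) held no called gene either. Where 0.982% of all genes were called lower and 0.222% higher, lists of 8 to 23 genes with no call are at the background, so these counts say nothing particular of the lists. Cell division genes were lower in both pairs at any size in 15 of 23, where 29.7% of all genes were, with medians of -0.33 and -0.27. Of the glucosinolate list 12 of 17 were lower and 4 higher in both pairs at any size, with medians of -0.45 and -0.57. The list's sum went the other way, at 3014 and 3267 CPM in the poor libraries, against 2848 and 2640 CPM in the rich ones. SOT17, a sulfotransferase of glucosinolate synthesis, was the 1 called, at 11.9 and 7.90 CPM, against 26.5 and 17.2 CPM. The heterozygous libraries held 15.3 and 14.6 CPM of SOT17 and so sat below both rich libraries.

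**Figure D4:**
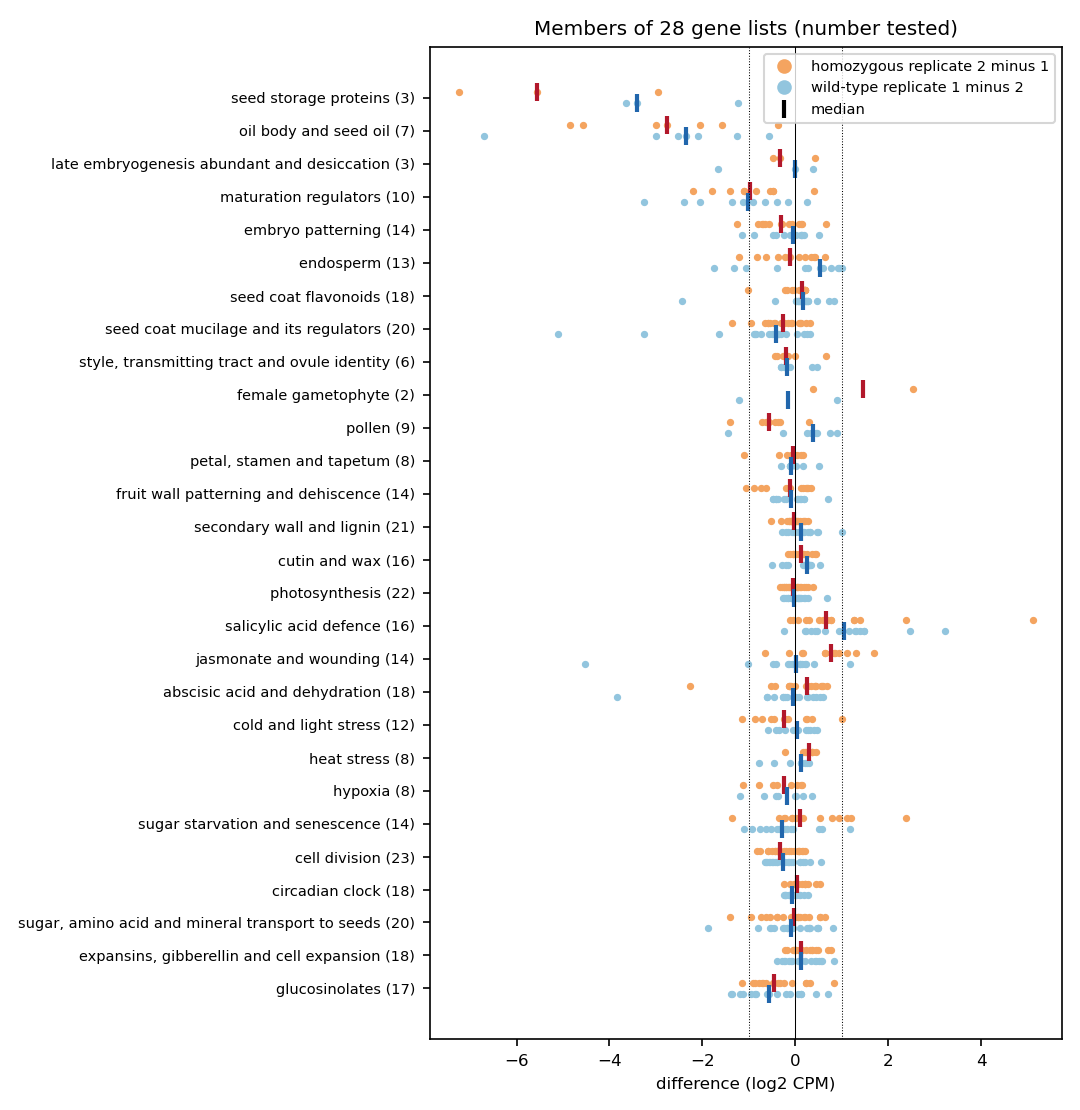
For each of 28 gene lists, with the number of members tested in brackets, points give each member's difference in log2 CPM in the homozygous pair (replicate 2 minus 1, orange) and the wild-type pair (replicate 1 minus 2, blue), bars the medians and dotted lines 2-fold. Storage, seed oil and maturation regulator lists lie to the left in both pairs, salicylic acid defence lies to the right, and most other lists are centred near 0.

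Because maturation transcripts chose the sides, they give no support to a name that speaks of silique maturity. The median differences of the lists that did not choose them were -0.12 and -0.08 for fruit wall, 0.09 and -0.28 for sugar starvation and senescence, and -0.05 and -0.02 for photosynthesis genes in the homozygous and wild-type pairs, so the age of the whole fruit is not shown by these lists either way. Pollen genes, as a list of other cells a silique can hold, summed to 121 and 281 CPM in the poor libraries, against 184 and 231 CPM in the rich ones, and did not follow the split. AtVEX1, from the pollen list, was the 1 called lower of 9 tested, where 0.982% of all genes were, at 3.89 and 3.90 CPM, against 10.4 and 10.8 CPM. Structural RNA took 4.37% and 3.04% of counts in the poor libraries, against 3.63% and 8.13% in the rich ones. Of the 195 lower genes, 7 do not code for protein, and 5 of the called genes had counts within 5% of a structural RNA entry of the same table. Without the genes of the rRNA, snRNA, snoRNA and tRNA classes, 189 were lower and 43 higher.

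The heterozygous libraries had no part in choosing the sides. At most called genes they differed from the poor libraries in the same direction as the rich ones. Both heterozygous libraries were above both poor libraries at 187 of the 195 lower genes (95.9%), where 18.6% of all genes tested had both above. At the 44 higher genes both were below both poor libraries in 32 (72.7%), where 19.1% of all genes had both below. They were often not level with the rich side there. Heterozygous replicate 1 was above both rich libraries at 21 of the 44 and below both at 9, and heterozygous replicate 2 at 27 and 10. The called genes were chosen for low or high poor libraries, which favours such an order, so the shares are descriptions without a test.

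The 2 heterozygous libraries also differed from each other at the lower genes. Heterozygous replicate 2 was above replicate 1 at 163 of the 195 lower genes (83.6%), where it was above at 52.3% of all genes, and the median difference was 0.40. It was at least 2-fold above at 24 (12.3%), where 0.821% of all genes were, and at least 2-fold below at 5, where 0.594% were. At the 44 higher genes it was above in 21 (47.7%) with a median of -0.00. Heterozygous replicate 2 exceeded both rich libraries at 125 of the lower genes, and heterozygous replicate 1 at 16. The storage protein sums given above likewise differed between the replicates of all 3 genotypes, while the 44 higher genes had no common direction in the heterozygous pair.

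**Figure D5:**
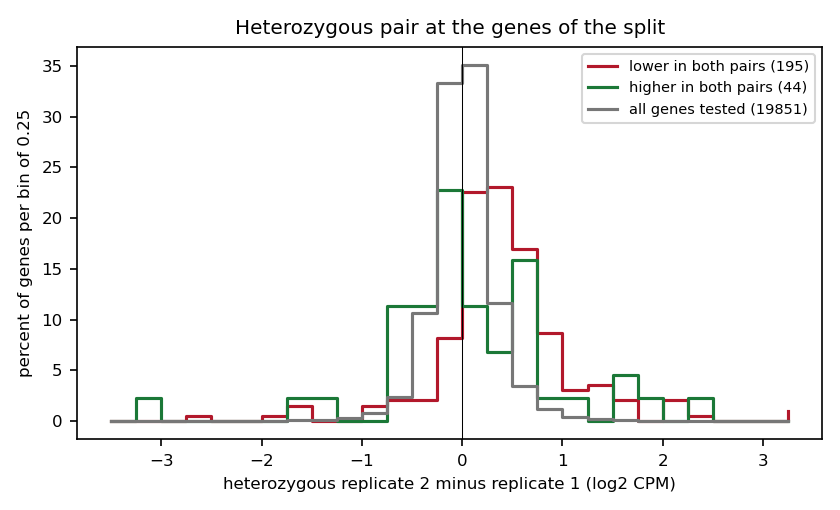
Percent of genes per bin of 0.25 log2 CPM, by the difference between heterozygous replicate 2 and heterozygous replicate 1, for the 195 genes lower in both other pairs (red), the 44 higher ones (green) and all 19851 genes tested (grey), with larger differences counted in the end bins. The red line is shifted to the right of the grey one, with a median of 0.40, and the green line is centred near 0.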

How the data were processed

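The authors deposited estimated counts, 1 value per gene and library, and 7.88% of its values were not whole numbers. The submitters' processing notes name HISAT2, featureCounts, Bowtie and the build TAIR10, and no version or setting, strand included, is given in the sources used here. Reads of overlapping, antisense or near-identical genes may therefore be shared. Per the labels' protocols, total RNA was extracted with an RNeasy kit. The small RNA table was not used here.

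The counts were rounded to whole numbers, and 1429 structural RNA entries and 285 organelle entries were set apart from the 32548 nuclear genes. CPM used TMM scaling from edgeR 4.0.16 (limma 3.58.1, R 4.3.3), and differences used log2 CPM with a prior count of 2, taken within each genotype and never averaged. Genes needed a mean of 1 CPM over the 4 libraries. Fold values are CPM ratios with exact binomial 95% intervals. Library totals ran from 30338426 to 36258968, so counting error is large under about 10 counts. Gene names came from a RefSeq table of assembly TAIR10.1, matched by locus for all 19851 genes. Promoter sequences were not analysed here. Intervals used scipy 1.17.1, tables used pandas 2.3.3 and numpy 2.4.6 under Python 3.11.15, plots used matplotlib 3.10.9, and the steps were tested on simulated data.

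The sides, the gene lists and the rules were chosen with earlier results of these data known, so no value supports them independently. Named were all storage genes, up to 4 called members of each other list, the 12 lower and up to 12 higher genes (7 met the rule) with the largest smaller difference among those with a symbol and a mean of at least 5 CPM, and PR1, PR2 and PR5. Alternatives were DESeq2 1.42.0 size factors, totals without structural RNA, other filters, prior counts and fold limits, and leaving out each library. Leaving out the structural RNA gene classes was added after seeing the data.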

Additional observations from a re-analysis of the deposited data

Results flagged for a closer look

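Pollen genes had a median difference of -0.57 in the homozygous pair and 0.39 in the wild-type pair (log2 CPM, 9 genes tested), so the 2 genotypes differed in direction. Endosperm genes had medians of -0.10 and 0.53 (13 genes tested). Over all genes, 13 were at least 2-fold apart in both pairs in opposite directions, or 0.0655% of those tested. Among them QQS was at 0.766 CPM in homozygous replicate 2 and 1.81 CPM in wild-type replicate 1, against 0.297 CPM in homozygous replicate 1 and 4.25 CPM in wild-type replicate 2. None of these differences between the pairs was tested.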

How the results depend on the processing

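With 195 genes lower and 44 higher as the values reported, dropping the expression filter gave 410 lower and 363 higher, and a mean of 5 CPM gave 113 and 12. That stricter filter removes 6 named genes, SESA1, SESA3, CRA1, DPBF2, BGL2 and JAZ5. A limit of 1.5-fold gave 495 and 269, and a limit of 4-fold gave 53 and 5. Leaving out 1 library leaves 1 pair by construction, and gave 360 to 517 lower, 271 to 293 higher and 39 to 47 called list members, against 26 with both pairs. DESeq2 size factors gave 195 and 44, of which 193 and 43 were the same genes, and totals without structural RNA gave 187 and 50. A prior count of 0.5 gave 201 and 48. For 34 named genes the smaller of the 2 differences was recomputed in 334 comparisons. Many of these could not move. Filters leave a gene's values as they are, and leaving out a library returned the same value where the kept pair held the smaller difference. The sign in a single pair was already fixed by the call in both pairs. Of the 334, none changed sign, 302 stayed within the counting interval of the reported value and 32 left it, so the 302 is no measure of robustness. That interval is wide for genes with few counts: without either wild-type replicate SESA3 went to -7.25 against -3.40 as reported, CRA1 to -5.57 against -3.64 and BGL2 to 5.12 against 3.22, and with the prior count of 0.5 SESA3 went to -4.38. No paired analysis was possible because no result comes from a test: the sides were chosen from measured transcripts, so a test of side with genotype as a block could be computed but would be circular. Genes with few counts in a poor library carry wide intervals, so their fold sizes are loose.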

Other observations

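AT3G01345, chosen after its values were seen, was at 0.245 CPM in homozygous replicate 2 and 194 CPM in wild-type replicate 1, against 94.9 CPM in homozygous replicate 1 and 107 CPM in wild-type replicate 2. The heterozygous libraries held 158 and 0.284 CPM. The gene was thus near the floor in 1 homozygous and 1 heterozygous library and abundant in the other 4, and followed neither genotype nor the split.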
